A study of Mus musculus with 8 samples.

Results

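Neuron-enriched microRNAs of the miR-128, miR-129, miR-135, miR-137, miR-149, miR-153, miR-218 and miR-7 families were examined in the mouse amygdala after auditory fear conditioning. The members are the capture probes of 10 mouse stems (mmu-miR-128, mmu-miR-129, mmu-miR-135a, mmu-miR-135b, mmu-miR-137, mmu-miR-149, mmu-miR-153, mmu-miR-218, mmu-miR-7a and mmu-miR-7b), any arm and any locus, chosen by name, and the mouse prefix is left out from here on. They make up 25 of the 1034 mouse-named probes on the array. Tissue came from adult male C57/Bl6J mice, 4 left in the home cage and 4 killed 30 min after 5 pairings of a 6 kHz tone with a 0.6 mA foot shock. Both amygdalae of each animal were collected with a 1 mm punch from the frozen brain, and each animal has its own array. From each animal 500 ng of RNA was labelled with the dye Hy3 and read against a reference pool of the animals' RNA, labelled with Hy5, on the same array. The home cage animals received neither tone nor shock, so that learning and exposure to the procedure cannot be told apart.

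MicroRNAs are short RNAs that guide Argonaute proteins to messenger RNAs, mainly through the seed, bases 2 to 8 of the mature strand, and lower the output of those messengers. Each hairpin can yield an RNA from both of its arms, and an asterisk marks the less abundant arm in the names used by the array. The amygdala links a sound to a shock during fear learning, and microRNAs are among the regulators of protein synthesis at synapses. miR-128 is an abundant neuronal microRNA, and its loss from dopamine-responsive neurons of the mouse causes fatal epilepsy. miR-129-5p represses a dendritic voltage-gated potassium channel and acts in synaptic downscaling in rat neurons. miR-137 lies at a human schizophrenia risk locus and targets synaptic genes. miR-153 and miR-7 both repress alpha-synuclein, and miR-7 is also bound by the circular RNA Cdr1as. miR-135a represses the serotonin transporter and a serotonin receptor in the mouse, and miR-218 is enriched in motor neurons.

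The mature strands of the main arms are shown because the results are ordered by these families, and because miR-7a and miR-7b are close enough in sequence that their probes may capture each other's target. Sequences are from RefSeq (GRCm38.p6), which matched 23 of the 25 members, and run 5′ to 3′ with the seed in capitals. miR-129-1-3p and miR-135b are named only, so their likeness to miR-129-2-3p and miR-135a was not examined. Capture of each other's target by these probes was not tested.
miR-129-5p: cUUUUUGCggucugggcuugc
miR-129-2-3p: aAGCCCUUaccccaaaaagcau
miR-153: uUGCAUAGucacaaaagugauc
miR-128: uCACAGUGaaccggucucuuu
miR-218: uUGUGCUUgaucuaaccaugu
miR-137: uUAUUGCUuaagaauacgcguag
miR-135a: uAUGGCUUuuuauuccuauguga
miR-149: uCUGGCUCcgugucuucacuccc
miR-7a: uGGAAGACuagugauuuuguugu
miR-7b: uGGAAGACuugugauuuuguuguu

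Over the 23 positions of miR-7a, miR-7b matched at 22, the difference being A10U (the base of miR-7a first, counted from 1 at the 5′ end), and miR-7b had 1 further base at its 3′ end. They shared the seed GGAAGAC, and none of the other 8 main-arm sequences shown shared a seed. Several members come from more than 1 hairpin, so their probe cannot tell the loci apart. miR-129-5p is encoded at chr2:94241419-94241439 (minus strand), within the span of Mir670hg, and at chr6:29022624-29022644 (plus strand). miR-129-2-3p lies on the other arm of the first of these hairpins, at chr2:94241376-94241397. miR-128 is encoded at chr1:128202404-128202424 within R3hdm1 and at chr9:112118644-112118664 within Arpp21. miR-218 lies within the axon guidance genes Slit2, at chr5:48223966-48223986, and Slit3, at chr11:35616840-35616860. miR-153 lies at chr12:117250860-117250881 within the span of Ptprn2 and Gm5441. miR-137 lies at chr3:118433901-118433923, where no other gene was listed. miR-135a is encoded at chr9:106154140-106154162, within the spans of Glyctk and D030055H07Rik, and at chr10:92072141-92072163. miR-149 lies at chr1:92850381-92850403 within Gpc1. miR-7a is encoded at chr13:58392841-58392863 within Hnrnpk and at chr7:78888295-78888317, and miR-7b at chr17:56243017-56243040.

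Each array held 12312 spots, of which 10488 were capture spots, usually 4 to a probe. Precision is limited by having 4 arrays in each group. Each member has a normalised Hy3 signal on the log2 scale and a log ratio of sample to pool, deposited by the authors and taken as log2. Values per array are always given in the order of arrays 1 to 4 of a group. A probe counted as measured on an array when its signal lay above 95% of the negative control spots, and 480 of the 1034 mouse-named probes did so on all 8 arrays. Home cage array 1 stood apart: the 95th percentile of its local background was 267 against 54 to 60 on the other arrays, and background exceeded signal in 508 of its spots against 0 to 10. The 95th percentile of the capture signal was 498 to 589 on the home cage arrays and 600.5 to 901 on the fear conditioned arrays, without overlap. Each array lay on a slide of its own and the slide numbers ran separately for the groups, which leaves slide order inseparable from group.

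Of the 25 members, 17 exceeded the negative controls on all 8 arrays and 8 did not. None of the 25 passed limma's test at an adjusted p under 0.05 in the Hy3 signal, where 0.193% of all 1034 mouse-named probes passed. None passed in the deposited log ratio, where 0% of all probes did. The lowest adjusted p of a member was 0.191 in the Hy3 signal and 0.591 in the ratio. Before adjustment, 6 members had a limma p under 0.05 in the Hy3 signal, 5 with a difference below 0 and 1 above, beside 14.1% of all mouse-named probes (9.09% below and 5.03% above). Among the 17 measured on all arrays the count was 5, of them 4 below 0 and 1 above, beside 22.5% of the 480 probes measured on all arrays (15.6% below and 6.88% above). In the ratio the count was 4 of 25, of them 3 above 0 and 1 below, beside 7.74% of all probes (6.38% above and 1.35% below). These 4 all belonged to the 17, beside 9.38% of the 480 probes (8.33% above and 1.04% below).

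The direction of the members as a group was not the same in the 2 readouts, and neither was that of the 480 probes measured on all arrays. In the Hy3 signal, 6 of the 17 differences (fear conditioned minus home cage) were above 0 and 11 below, and 60.4% of the 480 probes lay below 0. Centring each array on its median in place of quantile normalization gave 15 above and 2 below, while the median over the 480 probes moved from -0.028 to 0.17. In the deposited ratio, 13 were above 0 and 4 below, and 31.5% of the 480 probes lay below 0. Across both readouts 4 members were below 0 in each, 6 were above 0 in each and 7 were below 0 in the Hy3 signal and above 0 in the ratio. The median difference over all 25 members was -0.034 in the Hy3 signal, against -0.0043 over all mouse-named probes, and 0.048 in the ratio, against 0.031. These medians are descriptions without a test, and both readouts come from the same 8 arrays. Leaving out a single array moved the difference by over 1.5 times for 12 of the 17 members in the Hy3 signal and 14 of the 17 in the ratio. The Hy3 differences of miR-129-1-3p, miR-129-2-3p, miR-129-5p, miR-153* and miR-7b were the ones that moved less.

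**Figure D1:**
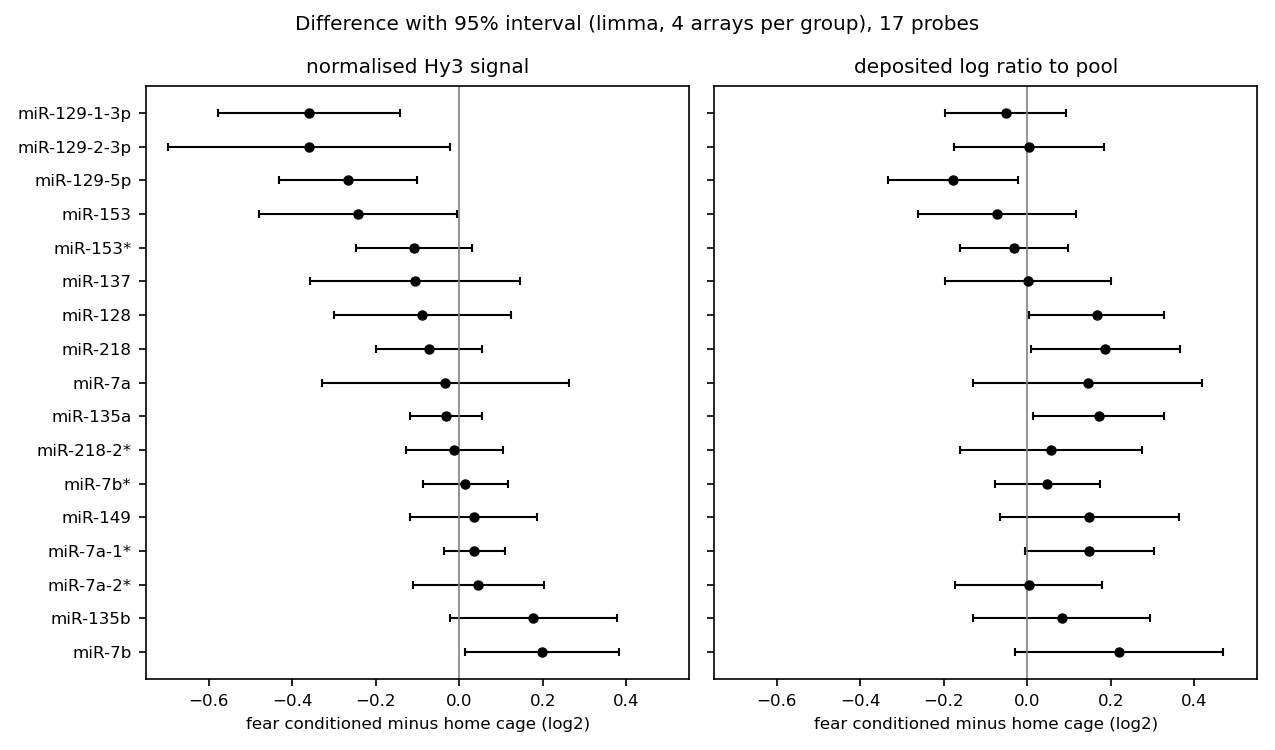
Difference between the groups (fear conditioned minus home cage, log2, x axis) for the 17 members measured on all 8 arrays, in the Hy3 signal (left) and the deposited ratio (right); points are limma estimates and bars their 95% intervals. The miR-129 and miR-153 probes lie lowest in the Hy3 signal and miR-7b highest, while in the ratio the miR-129 3p probes lie near 0 at -0.051 and 0.0038.

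The miR-129 family gave the lowest Hy3 differences of the members, and 2 of its 3 probes had groups that did not overlap, but none passed the test. miR-129-1-3p, a 3p strand named for the Mir129-1 hairpin, gave 10.96, 10.89, 11.02 and 10.66 in home cage and 10.33, 10.51, 10.60 and 10.64 in fear conditioned animals. All 4 home cage arrays stood above all 4 fear conditioned arrays, although the gap between home cage array 4 and fear conditioned array 4 was narrow. The difference was -0.36 (95% interval -0.58 to -0.14, n = 4 arrays per group, limma adjusted p = 0.191), or 0.779 times the home cage level on the linear scale. The log2 means were 10.88 ± 0.16 (SD) in home cage and 10.52 ± 0.14 in fear conditioned animals. miR-129-5p, the arm that represses the potassium channel, gave 8.79, 8.65, 8.61 and 8.45 in home cage and 8.27, 8.32, 8.40 and 8.44 in fear conditioned animals. Its groups also did not overlap, again with home cage array 4 just above fear conditioned array 4. The difference was -0.27 (95% interval -0.43 to -0.10, limma adjusted p = 0.209). Home cage lay wholly above fear conditioned in 2 of the 17 members, beside 6.67% of the 480 probes, and wholly below in 0, beside 4.17%. In the ratio no member had separate groups, beside 0.625% of the 480 probes with home cage above and 4.58% with home cage below.

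miR-129-2-3p, the 3p strand of the Mir129-2 hairpin, gave 8.13, 8.48, 8.68 and 8.30 in home cage and 7.87, 8.02, 7.90 and 8.37 in fear conditioned animals. Here fear conditioned array 4 and home cage array 1 crossed, and the groups overlapped. The difference of -0.36 had a wider interval of -0.70 to -0.023 (limma adjusted p = 0.344). The Hy3 differences of the 3p probes stayed below 0 under each of 17 alternatives, but shrank to -0.0080 for miR-129-1-3p and -0.071 for miR-129-2-3p with median centring, under which miR-129-5p stood at 0.037. In either readout, the replicate block (array number fitted as a term) and the filter on probes leave the differences of measured members unchanged by construction.

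In the deposited ratio only the 5p strand of miR-129 kept a difference whose interval excluded 0. miR-129-5p had ratios of 0.15, 0.18, -0.011 and -0.067 in home cage and -0.018, -0.15, -0.17 and -0.13 in fear conditioned animals. Home cage arrays 1 and 2 stood above the rest, and the other arrays mixed. The difference was -0.18 (95% interval -0.33 to -0.023, limma adjusted p = 0.591), and it remained below 0 in all 12 alternatives, from -0.22 to -0.14. For miR-129-1-3p the ratios were -0.040, -0.088, -0.069 and -0.21 in home cage and -0.20, -0.25, -0.12 and -0.039 in fear conditioned animals, a difference of -0.051 (SE 0.065). For miR-129-2-3p they were 0.0027, -0.12, -0.040 and -0.25 against -0.14, -0.24, -0.080 and 0.078, a difference of 0.0038 (SE 0.081). The groups of both 3p probes were interleaved in the ratio, in contrast to the separation of miR-129-1-3p in the Hy3 signal.

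**Figure D2:**
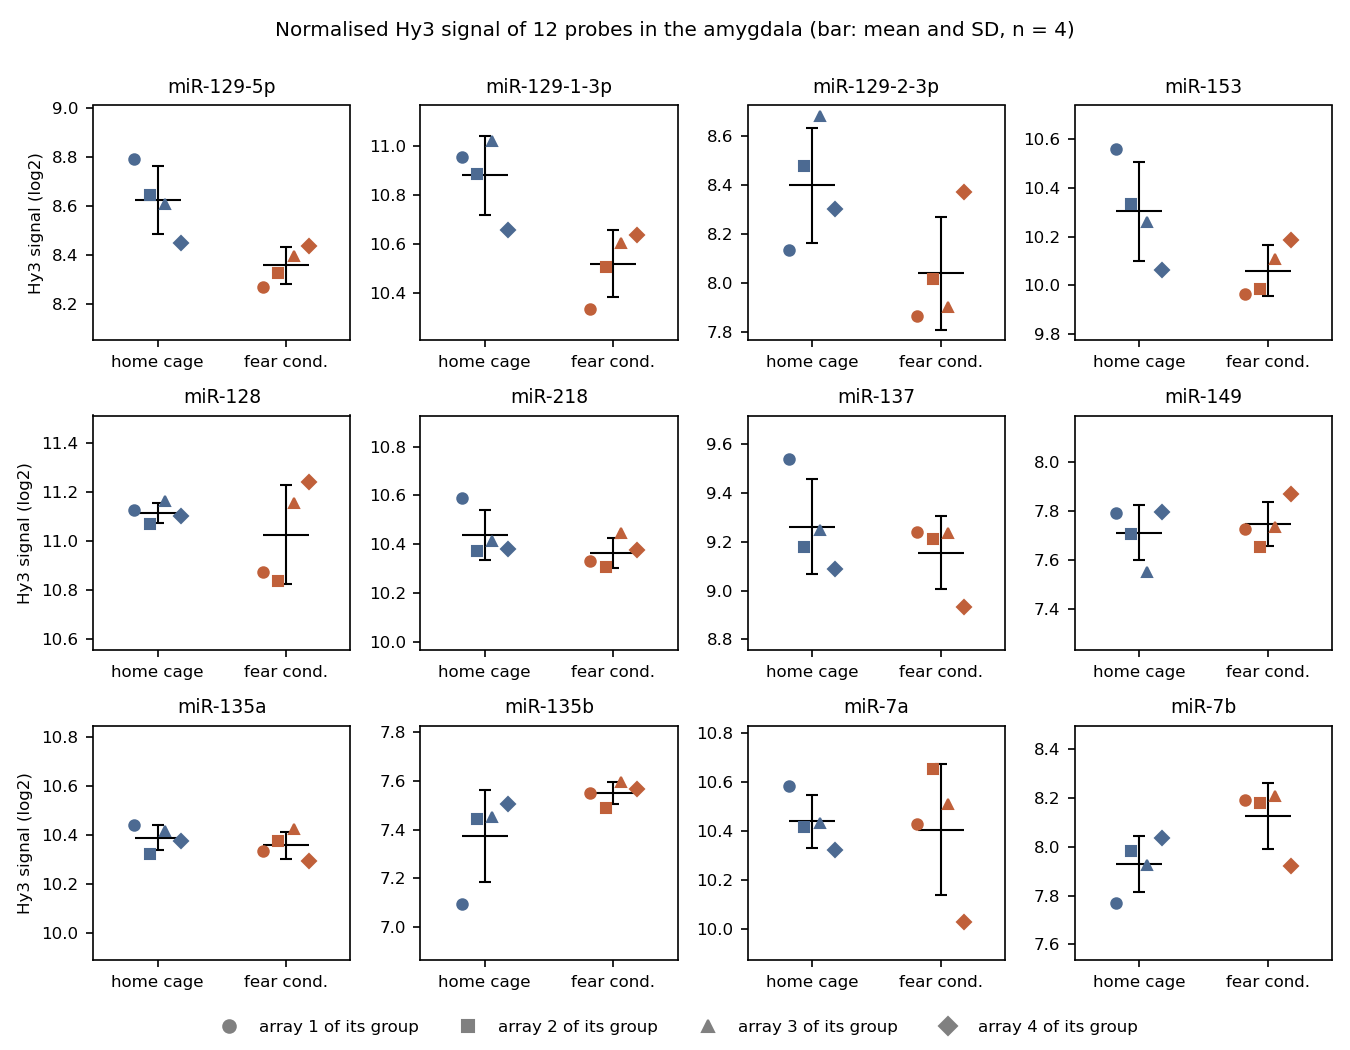
Normalised Hy3 signal (log2, y axis, same span in every panel) of 12 main-arm members on each array, 4 home cage and 4 fear conditioned; marker shape gives the array within its group and bars the mean and SD. Groups are apart for miR-129-5p and miR-129-1-3p, and fear conditioned array 4 lies far below the others of its group for miR-137 (8.93), miR-7a (10.03) and miR-7b (7.92).

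miR-153 and its other arm had Hy3 differences in the same direction as miR-129. miR-153 gave 10.56, 10.33, 10.26 and 10.06 in home cage and 9.96, 9.99, 10.11 and 10.19 in fear conditioned animals. Home cage array 4 fell among the fear conditioned arrays, so the groups overlapped. The difference was -0.24 (95% interval -0.48 to -0.0061, limma adjusted p = 0.344), and -0.15 without home cage array 1. miR-153* gave 7.19, 7.11, 7.07 and 6.99 against 6.89, 6.90, 7.08 and 7.05, with a difference of -0.11 (SE 0.060, limma adjusted p = 0.430). Both arms had the highest value on home cage array 1 and the lowest on fear conditioned array 1. Median centring turned both, to 0.17 and 0.098. The ratios of miR-153 were 0.15, 0.23, -0.11 and -0.082 against -0.090, -0.096, 0.040 and 0.050, a difference of -0.073 (SE 0.085). Those of miR-153* were 0.038, 0.12, -0.00016 and -0.077 against 0.0072, -0.012, -0.074 and 0.035, a difference of -0.031 (SE 0.058). In the ratio the groups of both arms overlapped, with home cage arrays 1 and 2 highest.

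miR-128, miR-218 and miR-135a had Hy3 differences below 0 and ratio differences above 0, the latter with intervals that excluded 0. miR-128 gave Hy3 signals of 11.13, 11.07, 11.16 and 11.10 in home cage and 10.87, 10.83, 11.15 and 11.24 in fear conditioned animals. The home cage arrays lay close together (SD 0.041), and the fear conditioned arrays fell on both sides of them (SD 0.20). The difference was -0.089 (95% interval -0.30 to 0.12, limma adjusted p = 0.678), and it was -0.023 when fear conditioned array 2 was left out and -0.17 when fear conditioned array 4 was. Its ratios were -0.39, -0.40, -0.27 and -0.32 in home cage and -0.30, -0.26, 0.0040 and -0.17 in fear conditioned animals. The fear conditioned arrays lay mostly above the home cage arrays, with an overlap between fear conditioned array 1 and home cage array 3, and the ratio difference was 0.17 (95% interval 0.0044 to 0.33, limma adjusted p = 0.591).

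miR-218 gave Hy3 signals of 10.59, 10.37, 10.41 and 10.38 in home cage and 10.33, 10.31, 10.45 and 10.38 in fear conditioned animals. Home cage array 1 was highest, and the other home cage arrays lay within the range of the fear conditioned arrays. The difference was -0.073 (95% interval -0.20 to 0.054, limma adjusted p = 0.544), and -0.023 without home cage array 1. The 4 spots of this probe scattered with a median SD of 0.19 within an array, more than the SD of 0.084 between arrays of a group. In the ratio miR-218 stood at -0.14, -0.042, -0.052 and -0.013 in home cage and -0.063, 0.20, 0.055 and 0.31 in fear conditioned animals. Only fear conditioned array 1 lay within the home cage range, and the difference was 0.19 (95% interval 0.0088 to 0.36, limma adjusted p = 0.591).

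miR-135a, the regulator of serotonin signalling, gave Hy3 signals of 10.44, 10.32, 10.42 and 10.38 in home cage and 10.34, 10.38, 10.42 and 10.29 in fear conditioned animals. The 8 arrays spanned only 0.14 and the groups were interleaved. The difference was -0.032 (95% interval -0.12 to 0.054, limma adjusted p = 0.703). Its ratios were 0.032, -0.037, -0.073 and 0.042 against 0.34, 0.15, 0.025 and 0.14. Here 3 of the 4 fear conditioned arrays exceeded every home cage array, and the difference was 0.17 (95% interval 0.014 to 0.33, limma adjusted p = 0.591). The ratio differences of miR-128, miR-218 and miR-135a stayed above 0 in all 12 alternatives run for each, at 0.10 to 0.20, 0.13 to 0.25 and 0.11 to 0.22. The lowest values came without fear conditioned array 3 for miR-128, array 4 for miR-218 and array 1 for miR-135a. In the same readout, 8.33% of the 480 probes had an unadjusted p under 0.05 with a difference above 0, and 3 of the 17 members did. The Hy3 differences of these 3 members were above 0 with median centring, at 0.23, 0.29 and 0.30.

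**Figure D3:**
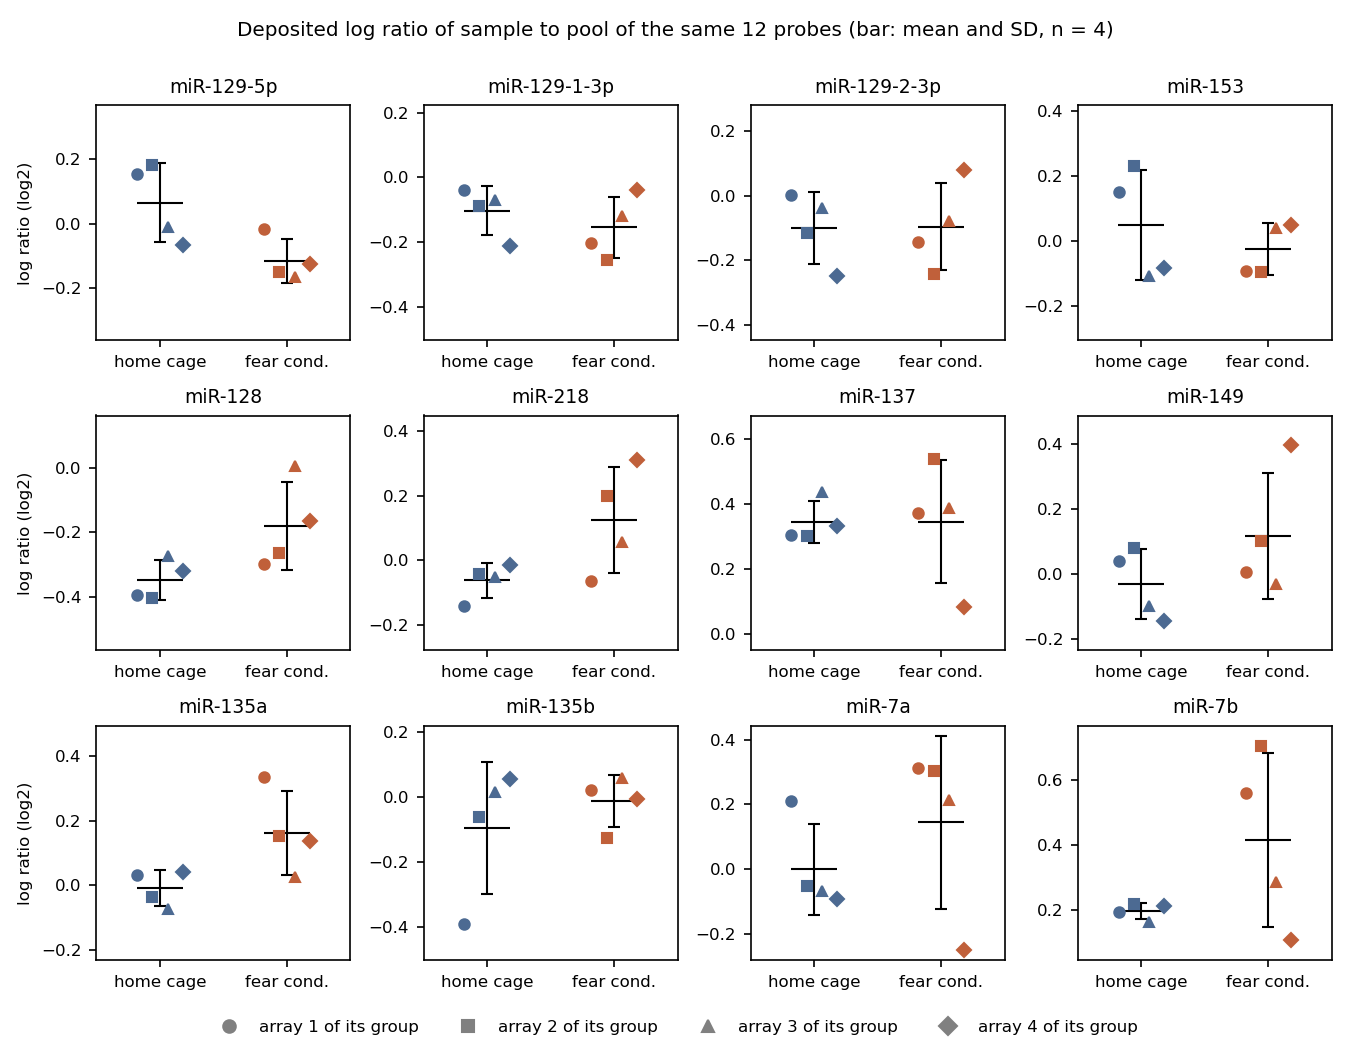
Log ratio of sample to pool as deposited (taken as log2, y axis, same span in every panel) for the same 12 members on each array; marker shape gives the array within its group and bars the mean and SD (n = 4). miR-128, miR-218 and miR-135a lie mostly higher on the fear conditioned arrays, miR-129-5p lower, and the groups overlap in every panel.

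miR-135b, the close relative of miR-135a, gave Hy3 signals of 7.10, 7.44, 7.45 and 7.50 in home cage and 7.55, 7.49, 7.60 and 7.57 in fear conditioned animals. Home cage array 1 was far below the rest, and its 4 spots had an SD of 0.36 there. The difference was 0.18 (95% interval -0.023 to 0.38, limma adjusted p = 0.391) and was 0.088 without that array. The ratios were -0.39, -0.062, 0.016 and 0.057 against 0.021, -0.13, 0.059 and -0.0046. Without home cage array 1 the ratio difference went from 0.082 to -0.016, so its sign rested on that array.

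miR-7b, which shares its seed with miR-7a, gave Hy3 signals of 7.77, 7.98, 7.93 and 8.03 in home cage and 8.19, 8.18, 8.21 and 7.92 in fear conditioned animals. Fear conditioned arrays 1 to 3 exceeded every home cage array and array 4 fell inside the home cage range. The difference was 0.20 (95% interval 0.012 to 0.38, limma adjusted p = 0.344), the only one above 0 with an unadjusted p under 0.05 among the 17 members, where 6.88% of the 480 probes had the same. Without fear conditioned array 4 it was 0.26 (limma adjusted p = 0.172), and without home cage array 1 it was 0.15 (limma adjusted p = 0.397). The ratios were 0.19, 0.22, 0.16 and 0.21 in home cage and 0.56, 0.70, 0.29 and 0.11 in fear conditioned animals. The home cage arrays lay within a narrow band (SD 0.025) and the fear conditioned arrays spread to both sides of it (SD 0.27). The ratio difference was 0.22 (95% interval -0.031 to 0.47, limma adjusted p = 0.591). The difference of miR-7b remained above 0 under all 17 alternatives in the Hy3 signal and all 12 in the ratio. In neither readout could the replicate block or the filter on probes have moved it. Its ratio difference was 0.12 when fear conditioned array 2 was left out and 0.32 when fear conditioned array 4 was.

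miR-7a gave Hy3 signals of 10.58, 10.42, 10.43 and 10.32 in home cage and 10.43, 10.66, 10.51 and 10.03 in fear conditioned animals. Fear conditioned array 4 was lowest and array 2 highest, so that the spread within this group (SD 0.27) covered the home cage range. The difference was -0.034 (95% interval -0.33 to 0.26, limma adjusted p = 0.911), and 0.088 without fear conditioned array 4. The ratios were 0.21, -0.051, -0.068 and -0.090 against 0.31, 0.30, 0.21 and -0.25. Again fear conditioned array 4 was lowest, and the difference was 0.14 (SE 0.12, limma adjusted p = 0.759). Hybridisation of miR-7a to the miR-7b probe, or the reverse, was not tested.

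miR-7a-1*, the other arm of the Mir7-1 hairpin within Hnrnpk, gave Hy3 signals of 6.58, 6.64, 6.57 and 6.61 against 6.59, 6.60, 6.65 and 6.70, a difference of 0.035 (SE 0.031). miR-7a-2* gave 7.15, 7.22, 6.90 and 7.03 against 7.09, 7.07, 7.14 and 7.20, a difference of 0.046 (SE 0.068). miR-7b* gave 6.59, 6.50, 6.46 and 6.56 against 6.63, 6.46, 6.53 and 6.54, a difference of 0.014 (SE 0.044). In all 3 other-arm probes of the family the groups overlapped in the Hy3 signal. The ratios of miR-7a-1* were -0.072, -0.25, -0.30 and -0.24 against 0.032, -0.12, -0.17 and -0.00052, a difference of 0.15 (SE 0.070, limma adjusted p = 0.591). Those of miR-7a-2* were -0.15, -0.41, -0.32 and -0.47 against -0.27, -0.26, -0.35 and -0.47, a difference of 0.0029 (SE 0.079). Those of miR-7b* were -0.023, -0.15, -0.20 and -0.11 against -0.13, -0.033, -0.091 and -0.032, a difference of 0.048 (SE 0.057). miR-7a-1* came nearest to separate groups, with 3 home cage arrays below all fear conditioned arrays and home cage array 1 among them.

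miR-137 gave Hy3 signals of 9.54, 9.18, 9.25 and 9.09 in home cage and 9.24, 9.21, 9.24 and 8.93 in fear conditioned animals. Home cage array 1 was highest and fear conditioned array 4 lowest, and the other 6 arrays were close. The difference was -0.11 (95% interval -0.36 to 0.14, limma adjusted p = 0.672), and -0.014 without home cage array 1. The ratios were 0.31, 0.30, 0.44 and 0.33 against 0.37, 0.54, 0.39 and 0.085, a difference of 0.0014 (95% interval -0.20 to 0.20). All 8 ratios lay above 0, and fear conditioned array 4 was again lowest.

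miR-149 gave Hy3 signals of 7.79, 7.71, 7.55 and 7.80 in home cage and 7.73, 7.65, 7.74 and 7.87 in fear conditioned animals, a difference of 0.034 (95% interval -0.12 to 0.19, limma adjusted p = 0.822). Its ratios were 0.041, 0.079, -0.098 and -0.14 against 0.0044, 0.10, -0.033 and 0.40, a difference of 0.15 (SE 0.096, limma adjusted p = 0.685). Fear conditioned array 4 was highest in both readouts, the groups overlapped, and without that array the ratio difference was 0.055. miR-218-2*, from the hairpin within Slit3, gave Hy3 signals of 6.74, 6.60, 6.52 and 6.59 against 6.58, 6.58, 6.55 and 6.68, a difference of -0.012 (SE 0.050). Its ratios were 0.039, 0.040, -0.23 and -0.017 against 0.14, 0.063, 0.11 and -0.26, a difference of 0.056 (SE 0.098). Both groups held high and low arrays in each readout.

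The 8 members not above the negative controls on all arrays were all less abundant arms. miR-128-1*, miR-128-2*, miR-149* and miR-218-1* exceeded the controls on 0 arrays and miR-135b* on 1. miR-135a-1* did so on 6 arrays, and miR-135a-2* and miR-137* on 7 each. Their Hy3 differences ranged from -0.082 to 0.0090 and their ratio differences from -0.096 to 0.099, with no adjusted p below 0.353. The fear conditioned arrays of miR-135b* all lay below its home cage arrays (difference -0.082, beside 5.38% of all mouse-named probes with a value on every array). This probe did not exceed the controls on 7 of 8 arrays. miR-137* had no value on fear conditioned array 2 and was fitted with 3 arrays in that group. Differences at this level are compressed by the background correction and are not read further.

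Pairs of members on the same array were compared next, because the difference of a pair of probes does not move with a constant scaling of the array. Of 18 possible pairs (arms of a stem, the 2 miR-129-3p loci, miR-135a with miR-135b, miR-7a with miR-7b), 10 had both probes above the controls on all arrays. None passed an exact permutation test over 70 arrangements (two-sided, smallest possible p 0.0286) after adjustment over the 10 pairs in either readout, the lowest adjusted p being 0.429 in each, and in no pair were the groups apart. miR-153 minus miR-153* was 3.37, 3.22, 3.19 and 3.08 in home cage and 3.08, 3.08, 3.02 and 3.14 in fear conditioned animals. The fear conditioned arrays and home cage array 4 lay together below the other home cage arrays, a difference of -0.13 (exact permutation p = 0.0857) and of -0.071 without home cage array 1. miR-135b minus miR-135a was -3.34, -2.88, -2.96 and -2.87 against -2.78, -2.89, -2.83 and -2.73, a difference of 0.21 (exact permutation p = 0.0857) in which home cage array 1 stood far below. Without that array it was 0.10, and in the ratio this pair had the opposite sign, at -0.089.

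miR-7b minus miR-7a was -2.81, -2.44, -2.51 and -2.29 in home cage and -2.24, -2.48, -2.30 and -2.11 in fear conditioned animals, a difference of 0.23 (exact permutation p = 0.143). miR-7b minus miR-7b* differed by 0.18 (exact permutation p = 0.171), close to the 0.20 of miR-7b alone, as the dim miR-7b* differed by 0.014. These 2 pairs kept their direction under all 13 alternatives, of which the replicate block cannot change a pair difference. In the ratio they stood at 0.075 and 0.17. Without home cage array 1 they stood at 0.13 and 0.11 in the Hy3 signal. miR-129-1-3p minus miR-129-2-3p was 2.48 ± 0.23 in home cage and 2.48 ± 0.18 in fear conditioned animals (SD, n = 4). miR-129-1-3p minus miR-129-5p and miR-129-2-3p minus miR-129-5p each differed by -0.094 in the Hy3 signal and by 0.13 and 0.18 in the ratio, so that the sign depended on the readout. The other pairs were miR-218 with miR-218-2* (-0.060), miR-7a with miR-7a-1* (-0.069) and miR-7a with miR-7a-2* (-0.080), with exact permutation p values of 0.286, 0.8 and 0.743.

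**Figure D4:**
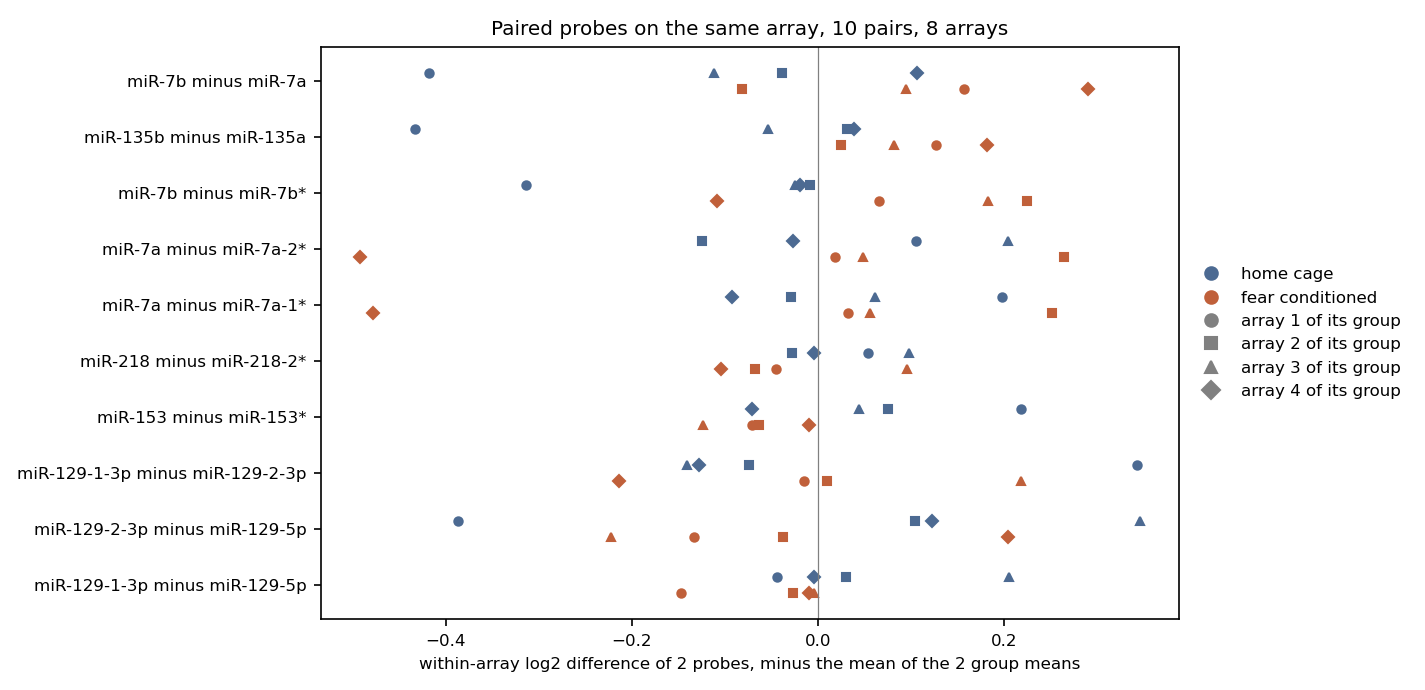
Within-array log2 difference of 10 pairs of members on each array (x axis, shifted by the mean of the 2 group means), home cage above and fear conditioned below within each pair, with marker shape giving the array. No pair separates the groups, and home cage array 1 is the farthest point in miR-135b minus miR-135a and in miR-7b minus miR-7a.

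For the 3 members with the widest range over the arrays, the mouse-named probes with the most similar Hy3 pattern were found among 463 other probes measured on all arrays, by the root mean square (RMS) difference over the 8 arrays after centring each probe. miR-129-1-3p (range 0.69, RMS around its own mean 0.22) lay nearest to miR-329 (0.079), miR-103 (0.094) and miR-361 (0.095). The Hy3 differences of these probes were -0.26, -0.29 and -0.23, and in the ratio 0.14, 0.11 and 0.044. miR-129-2-3p (range 0.82, RMS 0.27) lay nearest to let-7b (0.13), miR-15a (0.14) and miR-320 (0.15). miR-7a (range 0.63, RMS 0.18) lay nearest to miR-1959 (0.12), miR-382 (0.13) and miR-1839-5p (0.13), a looser match relative to its own spread.

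**Figure D5:**
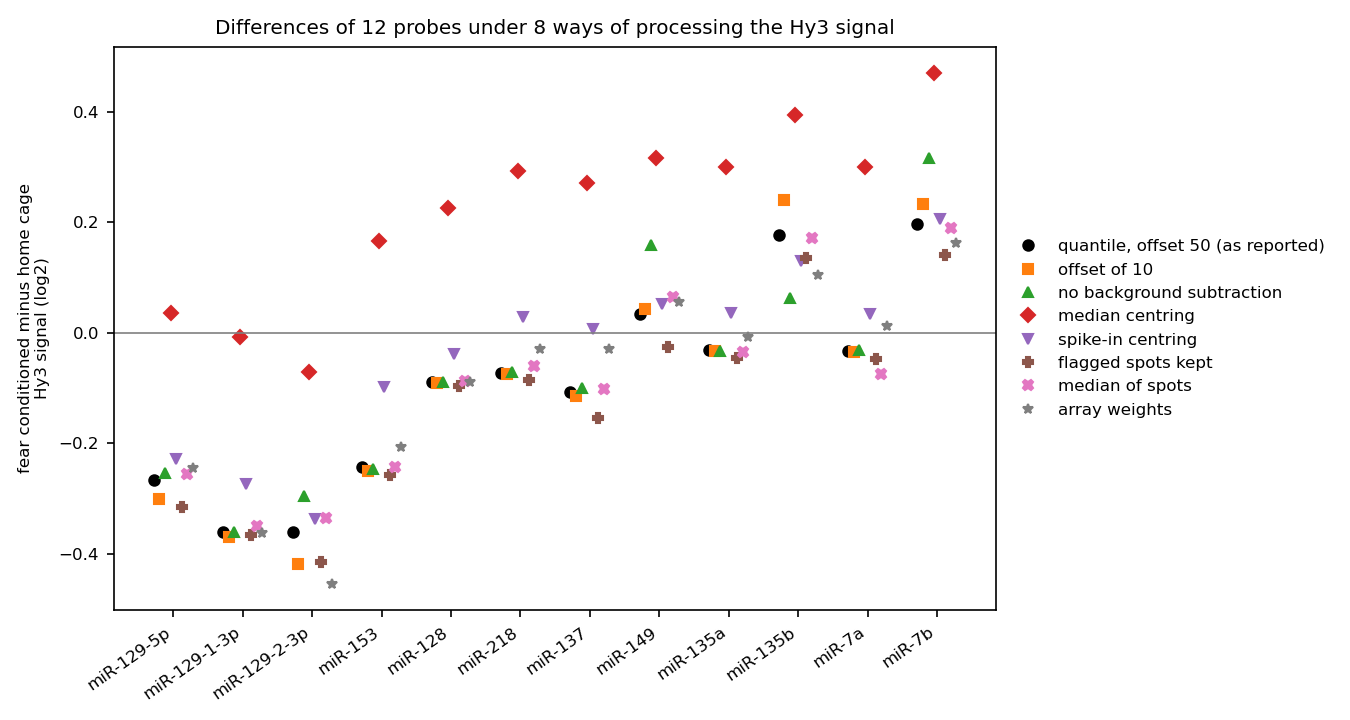
Hy3 difference between the groups (fear conditioned minus home cage, log2, y axis) of 12 members under 8 ways of processing the same spots. Median centring shifts all 12 upward, miR-7b and miR-135b stay above 0 and the 2 miR-129-3p probes below 0 in every setting drawn, and no setting gave a member an adjusted p under 0.05.

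Other neuron-enriched microRNAs (29 probes of 14 further stems, among them miR-9, miR-124 and miR-132) were read in the same fit. Of the 24 measured on all arrays, 5 had a Hy3 difference above 0 and 19 below, 0 passed the test in either readout, and the median was -0.061 in the Hy3 signal and -0.0047 in the ratio. Over the 480 probes measured on all arrays, 60.4% lay below 0 in the Hy3 signal, and the medians were -0.028 and 0.041. The highest of the 24 was miR-138-2* (0.27, ratio -0.063) and the lowest miR-139-5p (-0.31, ratio -0.063). The neuronal markers miR-124, miR-9 and miR-138 were present, with 7 of 7 probes above the controls on all arrays. Their summed linear signal was 34201 to 36621 in home cage and 29658 to 37779 in fear conditioned animals. This sum is weighted to the brightest probe, miR-124 (home cage log2 mean 14.46, Hy3 difference -0.19). Of the 7 Hy3 differences, 4 were above 0 and 3 below, with a median of 0.093, and in the ratio 3 were above and 4 below. In tissue of mixed cell types, fewer cells of a type and less RNA per cell cannot be told apart.

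Markers of other cells were present as well, and in none of their lists did a probe pass the test in either readout. Oligodendrocyte markers (4 of 5 probes measured on all arrays, miR-219 and miR-338) summed to 1485 to 3187 in home cage and 2173 to 3756 in fear conditioned animals. Of their Hy3 differences 2 were above 0 and 2 below, with a median of -0.015, and in the ratio 3 were above and 1 below. The highest was miR-338-3p (0.45, ratio -0.19) and the lowest miR-219-3p (-0.16, ratio 0.019). Markers of choroid plexus and ciliated cells (7 of 12 probes, including miR-204 and miR-34b and miR-34c) had 7 Hy3 differences above 0 and 0 below, with a median of 0.24. Their sums were 1055 to 3319 against 1389 to 4019. In the ratio 7 were above 0 and 0 below, with a median of 0.30. Of the 480 probes, 60.4% lay below 0 in the Hy3 signal and 31.5% in the ratio. The summed signal of microglia and leukocyte markers (4 of 8) was 608 to 656 against 574 to 632. All 4 of their Hy3 differences lay below 0, and in the ratio 1 was above and 3 below. Vessel markers (3 of 6) summed to 1198 to 2039 against 1629 to 1986, and red blood cell markers (2 of 3) to 659 to 1475 against 661 to 1357. Markers of tissues outside the brain (4 of 11) summed to 392 to 430.5 against 391 to 435. Home cage array 1 had the lowest sum of the oligodendrocyte, choroid plexus, vessel and red blood cell lists. The part of these cells in the values of the members was not tested.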

How the data were processed

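Per the labels' protocols, Hy3 labelled the total RNA of each animal and Hy5 the pool, and the array's supplier did the labelling, hybridisation and data analysis. The deposited scanner files give, per the file headers, spot intensity and local background intensity of 1 channel, taken as Hy3 because it lights the Hy3 landmark spots (medians 3581 to 4422, against 51.4 to 54.2 for empty spots). Hy5 spot values were not analysed here. A second deposited table holds the authors' log ratios, treated as log2 values. How these ratios were corrected and normalized, and their log base, was not stated in the labels or headers. The ratio was read as sample over pool because its deviations correlated positively with those of the Hy3 signal on each array (r 0.341 to 0.739 over 480 probes, which share each array). The slope of Hy3 on ratio over 20 wide-ranging probes was 0.709. All ratio columns belonged to samples, and 0 value columns were left without one.

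With 1 channel in the files, normexp (offset 50) and quantile normalization over capture spots were applied with limma 3.58.1 (R 4.3.3). After normexp and before quantile normalization, control spots were set aside. Spots marked for poor shape or for background above signal were dropped at the same point (4 to 13 member spots per array). Spots of a probe were averaged on the log2 scale, and because of the offset the differences of dim probes are compressed. Groups were compared with limma (lmFit, eBayes, two-sided), with Benjamini-Hochberg adjustment over all 1034 mouse-named probes, and pairs of probes with an exact permutation test. As a check of the code, the fit was run on simulated probes drawn independently, without background, array effects or normalization. That run does not give the power of the test on these arrays. Labels name separate animals as replicates. Probe names are those of the array design.

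All 25 members were named, with values per array for those above the controls on all 8 arrays and ranges for the rest. The members and lists were chosen with earlier results of these data known, so no test was made over a list. Alternatives changed the offset, background, scaling, spot marks, filter, spot summary, array weights, replicate block, readout and arrays. Figures were drawn with matplotlib 3.10.9.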

Additional observations from a re-analysis of the deposited data

Results flagged for a closer look

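Among 98 groups of 4 arrays tested for a single array far from the other 3 (by Dixon's ratio of gap to range), 6 had such an array, where chance alone gives about 5 percent. In the Hy3 signal, miR-137 stood at 8.93 on fear conditioned array 4, against 9.21 to 9.24 on the others of its group. On the same array miR-7b stood at 7.92, against 8.18 to 8.21. miR-135b stood at 7.10 on home cage array 1, against 7.44 to 7.50, and miR-135a-2*, not above the controls on all arrays, at 6.35 against 6.48 to 6.50. In the deposited ratio, miR-7a stood at 0.21 on home cage array 1, against -0.090 to -0.051. miR-218-1*, which exceeded the controls on 0 arrays, stood at -0.60 there, against -0.13 to -0.093.

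Home cage array 1 accounts for 4 of the 6 values. The spots of miR-7a, miR-135b, miR-135a-2* and miR-218-1* scattered on that array with an SD of 0.42, 0.36, 0.31 and 0.17, in each of them the widest of the 8 arrays. Fear conditioned array 4, which accounts for the other 2, had the highest 95th percentile of capture signal (901).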

How the results depend on the processing

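No member passed under any alternative in either readout. The lowest member adjusted p was 0.0779, for miR-129-1-3p and miR-129-5p without home cage array 4 (differences -0.44 and -0.32), and 0.0955 with array weights. Of 623 single values under alternatives (44 results), 554 kept their direction and 69 turned. Those that kept it include the replicate block and, for single members, the filter on probes, which cannot change a difference. With the replicate block, the lowest member adjusted p was 0.417 in the Hy3 signal and 0.714 in the ratio, and the calls over all mouse-named probes went from 2 to 0. Array weights gave 12. Deviations of arrays with the same number correlated at -0.087, 0.031, -0.62 and 0.0046, and 0 of 8 samples correlated best with their own number, so the numbers were not taken to pair the animals.

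The median over all mouse-named probes moved from -0.0043 to 0.057 with median centring and to -0.21 with spike-in centring. The member median then stood at 0.074 and -0.19, each 0.017 above it. This gap is the same by construction, because both settings shift each array by a constant. The member ratio median was 0.066 over probes above the controls on at least 4 arrays, and -0.012 (without home cage array 1) to 0.055 with an array left out.

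Median centring turned the Hy3 differences of miR-218 (0.29), miR-137 (0.27), miR-218-2* (0.074), miR-153* (0.098), miR-129-5p (0.037), miR-7a (0.30), miR-128 (0.23), miR-153 (0.17) and miR-135a (0.30). Spike-in centring turned miR-218 (0.028), miR-137 (0.0060), miR-7a (0.035), miR-135a (0.035), miR-7a-1* (-0.15), miR-7a-2* (-0.013) and miR-7b* (-0.21). Keeping marked spots turned miR-7a-1* (-0.015) and miR-149 (-0.025). The median of spots turned miR-7b* (-0.014), array weights turned miR-218-2* (0.015) and miR-7a (0.012), and no background subtraction turned miR-218-2* (0.046). In the ratio, median centring turned miR-137 (-0.010), miR-129-2-3p (-0.0077) and miR-7a-2* (-0.0087), and array weights miR-129-2-3p (-0.019). Apart from the shift of all probes that scaling brings, the cause was not tested.

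Of the pairs, median centring turned miR-129-1-3p minus miR-129-2-3p (0.064), miR-153 minus miR-153* (0.069), miR-218 minus miR-218-2* (0.22), miR-7a minus miR-7a-1* (0.19) and miR-7a minus miR-7a-2* (0.048). Quantile normalization is not a constant scaling, so pair values also move with it. An offset of 10 turned miR-129-1-3p minus miR-129-2-3p (0.050). The ratio turned miR-129-1-3p minus miR-129-5p (0.13), miR-129-2-3p minus miR-129-5p (0.18), miR-218 minus miR-218-2* (0.13), miR-7a minus miR-7a-2* (0.14) and miR-135b minus miR-135a (-0.089).

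With an array left out, Hy3 ranges crossed 0 for miR-149 (-0.019 to 0.066), miR-218-2* (-0.045 to 0.032), miR-7a (-0.12 to 0.088), miR-7a-2* (-0.012 to 0.093) and miR-7b* (-0.016 to 0.042). Ratio ranges did so for miR-129-2-3p (-0.054 to 0.052), miR-135b (-0.016 to 0.13), miR-137 (-0.063 to 0.089), miR-153* (-0.064 to 0.0021), miR-218-2* (-0.0071 to 0.15) and miR-7a-2* (-0.040 to 0.066). Pair ranges did so for miR-129-1-3p minus miR-129-2-3p (-0.072 to 0.12), miR-129-2-3p minus miR-129-5p (-0.24 to 0.0086), miR-7a minus miR-7a-1* (-0.17 to 0.076) and miR-7a minus miR-7a-2* (-0.19 to 0.067). The 8 members not above the controls on all arrays have signals near background, which limits what their differences show.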

Other observations

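The spread between arrays of a group exceeded the median spread between the spots used within an array for 14 of the 17 members measured on all arrays. The exceptions were miR-218, miR-149 and miR-7b*. Because marked spots were left out, the fewest spots used on an array were 1 for miR-7b* and miR-218-2*, 2 for miR-7a-1* and 3 for miR-153*. Median spot SDs ranged from 0.033 to 0.19 and SDs between arrays from 0.043 to 0.23. miR-129-2-3p had the widest spread between arrays (0.23) with a spot SD of 0.052.

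Fear conditioned array 4 had the lowest value of its group for miR-137, miR-7a and miR-7b in both readouts, and the highest for miR-149 in both. In the ratio, fear conditioned array 4 stood at 0.085 for miR-137, -0.25 for miR-7a, 0.11 for miR-7b and 0.40 for miR-149.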
